A study of Mus musculus with 10 samples.

Results

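The posterior Hoxa genes, Hoxa7, Hoxa9, Hoxa10, Hoxa11 and Hoxa13, lie side by side at one end of the Hoxa cluster on mouse chromosome 6. They are 5 of the 22350 protein-coding genes annotated on the 20 chromosomes that hold peaks, and 5 of the 11 annotated Hoxa genes. They were taken by name, with earlier results of these data known, and located in mm9 with the GENCODE annotation of that build. Binding was profiled by ChIP-seq, in which cross-linked chromatin is recovered with an antibody and sequenced, in J1 ESCs, a mouse embryonic stem cell line, and in NSCs, the neural stem cells differentiated from J1 ESCs in culture. ESCs were grown in serum and LIF on inactivated fibroblast feeders, which were depleted at harvest, and NSCs on gelatin with EGF and FGF. All cells were under standard growth conditions and were fixed for 10 min in 1% formaldehyde. ESCs had 1 library each for Ring1b, Cbx2, Ezh2 and H3K27me3, and NSCs 1 library each for Ring1b and H3K27me3. With 1 library per cell type and target there were no replicates, so every difference between lists below is a description with no replicate check and no test. The NSCs were made in culture and not taken from brain, and the identity of the cells was not checked here because the lists hold no expression.

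Polycomb-group (PcG) proteins keep developmental genes repressed and act in a pair of complexes. PRC1 contains the ubiquitin ligase Ring1b and a Cbx subunit such as Cbx2, which binds trimethylated lysine 27 of histone H3 (H3K27me3). PRC2 contains the methyltransferase Ezh2, which makes that mark. Hox genes encode homeodomain transcription factors that set position along the body axis, their order on the chromosome follows the order of their domains in the embryo, and the posterior genes serve the trunk, tail, limbs and urogenital tract.

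All 5 genes are transcribed from the reverse strand, so that Hoxa13 has the highest coordinate. Hoxa7 spans chr6:52164490-52171853, Hoxa9 chr6:52173099-52181088, Hoxa10 chr6:52181196-52190853, Hoxa11 chr6:52192107-52196213 and Hoxa13 chr6:52207693-52210874. The bodies are separated by 1245 bp between Hoxa7 and Hoxa9, 107 bp between Hoxa9 and Hoxa10, 1253 bp between Hoxa10 and Hoxa11 and 11479 bp between Hoxa11 and Hoxa13. For each gene a window of the gene body plus 10 kb either side was examined, between 23.18 kb (Hoxa13) and 29.66 kb (Hoxa10) long. These windows overlap, so a single wide peak counts for several genes and the 5 genes are not independent observations. Joined, the windows make one region of 66.39 kb, chr6:52154490-52220874. Its lower end also holds Hoxa6 and the start of Hoxa5 and of Hoxa3, and these lie inside the window of Hoxa7.

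The sequence just before a start site of each gene is shown first, because CpG-rich DNA is a common feature of mammalian PcG targets and because these stretches fell inside or outside the NSC peaks as wholes. Each reads 5′ to 3′ on the strand of the gene, in mm9, with the CpG dinucleotides in capitals. Those of Hoxa7, Hoxa9, Hoxa10 and Hoxa13 precede the RefSeq start site, placed in mm9 by an exact match of the RefSeq promoter, and that of Hoxa11 precedes the GENCODE start site. Hoxa7 is cut to the 112 bases upstream of the annotated transcript start at 52168710 (chr6:52168711-52168822). The others are 250 bases long (Hoxa9 chr6:52177370-52177619, Hoxa10 chr6:52184939-52185188, Hoxa11 chr6:52196214-52196463, Hoxa13 chr6:52210875-52211124).
Hoxa7: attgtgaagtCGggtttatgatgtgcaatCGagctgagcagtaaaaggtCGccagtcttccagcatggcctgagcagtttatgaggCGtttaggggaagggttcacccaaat
Hoxa9: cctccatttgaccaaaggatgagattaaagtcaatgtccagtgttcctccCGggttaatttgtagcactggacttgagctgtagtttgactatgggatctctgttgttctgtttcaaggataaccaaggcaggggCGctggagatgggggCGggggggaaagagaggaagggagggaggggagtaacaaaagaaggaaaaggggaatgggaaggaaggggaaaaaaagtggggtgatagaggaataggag
Hoxa10: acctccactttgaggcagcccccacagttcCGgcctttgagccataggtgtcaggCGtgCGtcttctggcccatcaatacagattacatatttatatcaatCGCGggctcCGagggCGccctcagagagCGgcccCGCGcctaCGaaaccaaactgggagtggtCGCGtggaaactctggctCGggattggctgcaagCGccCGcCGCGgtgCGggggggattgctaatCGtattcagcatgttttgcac
Hoxa11: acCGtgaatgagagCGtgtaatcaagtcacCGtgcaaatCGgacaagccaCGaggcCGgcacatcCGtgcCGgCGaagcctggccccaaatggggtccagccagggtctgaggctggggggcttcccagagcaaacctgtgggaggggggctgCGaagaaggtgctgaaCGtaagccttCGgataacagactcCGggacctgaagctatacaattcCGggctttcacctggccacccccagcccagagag
Hoxa13: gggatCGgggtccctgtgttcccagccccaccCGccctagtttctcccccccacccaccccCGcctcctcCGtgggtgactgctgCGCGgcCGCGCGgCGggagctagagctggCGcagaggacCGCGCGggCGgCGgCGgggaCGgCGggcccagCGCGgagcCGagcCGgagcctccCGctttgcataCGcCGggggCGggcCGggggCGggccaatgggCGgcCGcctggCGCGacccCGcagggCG

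The stretches of Hoxa9, Hoxa10 and Hoxa11 lay wholly under peaks in 6 of 6 lists. That of Hoxa7 lay wholly under peaks in the 4 ESC lists and had 0 bases under peaks in both NSC lists. That of Hoxa13 had the reverse of this in H3K27me3, with 0 bases covered in ESCs and 250 in NSCs, while Ring1b covered all 250 bases in both cell types. The pattern of Hoxa7 depends on the start shown. Its most upstream start, used for the counts below, lay in ESC Ring1b and Ezh2 peaks alone.

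The 5 genes did not share one base composition. RefSeq gives 6 promoters for them, a pair of them in Hoxa10, and these are compared here with 21263 RefSeq promoters of the same length, 250 bases. The GC content was 54.8% in Hoxa7, 49.6% in Hoxa9, 59.2% in the downstream and 51.6% in the upstream promoter of Hoxa10, 52% in Hoxa11 and 80% in Hoxa13, against a median of 55.6%. The ratio of observed to expected CpG was 0.266 in Hoxa9, 0.386 in Hoxa7 and 0.458 in the upstream promoter of Hoxa10, below the median of 0.53, and 0.792 in Hoxa11, 0.875 in Hoxa13 and 0.913 in the downstream promoter of Hoxa10, above it. Hoxa9, with 3 CpGs, and the downstream promoter of Hoxa10, with 20, lay under peaks in the same number of lists. Any relation between CpG content and coverage was not tested. The stretch of Hoxa11 printed above, which lies before the GENCODE start, had 61.2% GC and a CpG ratio of 0.60, so for Hoxa11 the side of the median in GC depends on the start used. TATAAA and CCAAT, searched on both strands, were found in the downstream promoter of Hoxa10, and CCAAT also in Hoxa13. They occurred in 11.63% and 35.37% of all promoters. CGCG was found in both promoters of Hoxa10, in Hoxa11 and in Hoxa13, though not in the stretch of Hoxa11 printed above, and in 43.65% of all.

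In ESCs the posterior genes lay under near-continuous peaks of Ring1b and under interrupted peaks of the other targets. The ESC Ring1b list also covered more of the genome, 7.9 Mb, than those of Cbx2 (2.588 Mb), Ezh2 (2.85 Mb) and H3K27me3 (4.905 Mb). Ring1b had its own input and, by the paper, an added EGS cross-link, so target and protocol cannot be told apart here. Ring1b covered 92.66% of the joined region with 2 peaks, and Cbx2 covered 74.88% with 7 peaks, Ezh2 64.34% with 8 and H3K27me3 70.36% with 8. In NSCs Ring1b covered 70.8% with 3 peaks and H3K27me3 59.35% with 4. The region was therefore less covered in the NSC lists, by 21.86 percentage points for Ring1b and 11.01 for H3K27me3. The H3K27me3 difference was 20.05 points with peaks within 3 kb merged and 17.4 over gene bodies alone. In each list the widest peak here was among the widest of all, while others were as narrow as 1000 bp (ESC H3K27me3). The widest ranked 1 of 2335 for ESC Ring1b (59000 bp), 20 of 1033 for Cbx2 (12400 bp), 7 of 1173 for Ezh2 (12000 bp), 1 of 2192 for ESC H3K27me3 (26000 bp), 2 of 1389 for NSC Ring1b (27400 bp) and 3 of 1647 for NSC H3K27me3 (16800 bp). All 6 lists covered 25.4 kb of the region in common, and only 874 bp, at the end beyond Hoxa13, lay under no peak of any list.

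**Figure D1:**
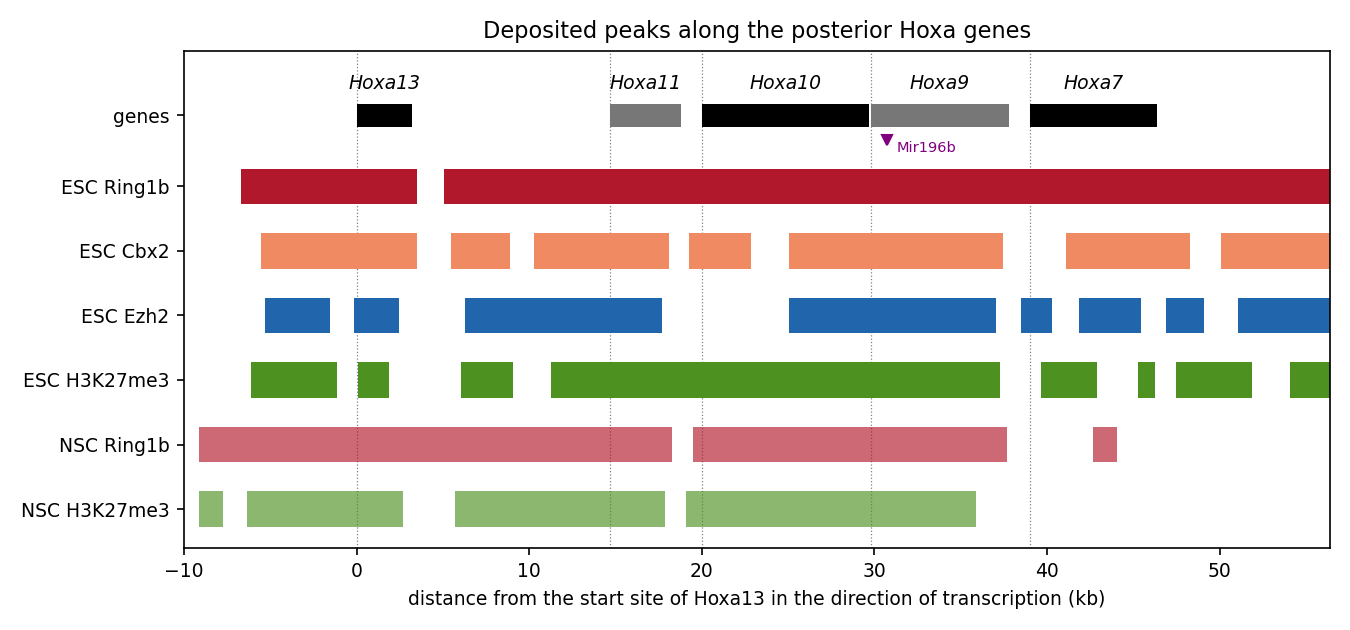
Peaks of the 6 lists (bars, 1 row per list) over the joined region of the 5 genes; the x axis is the distance in kb from the start site of Hoxa13 in the direction of transcription, dotted lines mark the 5 start sites, and bars are cut at the ends of the region. The NSC rows are empty to the right of Hoxa9 except for 1 Ring1b peak of 1400 bp inside Hoxa7.

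Coverage of such length was rare among genes. Over all protein-coding genes the median covered share of the gene body plus 10 kb either side was 0 in every list. The lowest of the 5 members stood at 78.98% for ESC Ring1b, a level reached by 0.143% of genes, and at 66.03% for Cbx2, reached by 0.0761%. For Ezh2 the lowest was 57.41% (0.0447% of genes) and for ESC H3K27me3 50.5% (0.107%). These genes, the 5 members among them, numbered 32 for ESC Ring1b, 17 for Cbx2, 10 for Ezh2 and 24 for ESC H3K27me3. In NSCs the lowest member, Hoxa7, stood at 36.74% for Ring1b (0.309% of genes) and at 25.04% for H3K27me3 (0.568%). The NSC H3K27me3 coverage of the Hoxa7 window was the edge of 1 peak that lies over Hoxa9 and Hoxa10. Of the 10053 bp under NSC Ring1b in this window, 1400 bp were a peak inside Hoxa7. The rest was the edge of a peak over Hoxa9 and Hoxa10.

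The start site was taken as the 5′ end of the annotated gene. In ESCs it lay inside a Ring1b peak in 5 of 5 members, against 7.03% of all genes. It lay inside a Cbx2 peak in 4 (1.15% of all genes), an Ezh2 peak in 4 (2.56%) and an H3K27me3 peak in 3 (4.31%). The count of 3 was 5 with peaks within 3 kb merged or with any transcript start counted, above the NSC count of 4 in place of below it. In NSCs it lay inside a Ring1b peak in 4 members (1.74% of all genes) and an H3K27me3 peak in 4 (1.77%). Hoxa9 and Hoxa11 had the start site inside a peak in all 6 lists, which held for 0.309% of all genes. Hoxa7 lacked Cbx2, H3K27me3 in both cell types and NSC Ring1b, Hoxa10 lacked only Ezh2, and Hoxa13 lacked only ESC H3K27me3.

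In most members a peak at the start site in ESCs had a counterpart in NSCs. Ring1b was present at the start site in both cell types in 4 members (1.18% of all genes) and in ESCs alone in 1, Hoxa7 (5.85%). H3K27me3 was present in both in 3, Hoxa9, Hoxa10 and Hoxa11 (1.1%), in ESCs alone in 0 (3.22%) and in NSCs alone in 1, Hoxa13 (0.671%). The call at Hoxa13 rests on a start site 74 bp outside an ESC peak. For comparison, of the 1571 genes with ESC Ring1b at the start site, 16.74% also had NSC Ring1b (exact 95% Clopper-Pearson interval 14.93 to 18.68). For H3K27me3 it was 25.41% of 964 genes (22.69 to 28.29). The intervals cover counting error over genes only.

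Hoxa7, which patterns the thoracic region of the axial skeleton, had the largest difference between cell types in body coverage, for Ring1b and for H3K27me3. Its whole body lay under ESC Ring1b, and 72.12% under Cbx2, 65.9% under Ezh2 and 57.03% under ESC H3K27me3. In NSCs Ring1b covered 19.01% of the body and H3K27me3 0%. The window gave the same order, with 100% of it under Ring1b in ESCs and 36.74% in NSCs, and 70.03% and 25.04% for H3K27me3. Of the NSC Ring1b in the body, all was 1 peak of 1400 bp (chr6:52166801-52168200), with 42.62% of the peaks of that list narrower. This peak lay near the middle of the annotated gene, and 1200 of its 1400 bp fell into a gap of 2400 bp between ESC H3K27me3 peaks. The one NSC Ring1b peak of Hoxa7 was thus mostly over DNA that carried no H3K27me3 peak in either cell type.

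Hoxa7 is also the member for which the choice of start site matters most. GENCODE gives it 5 transcript starts. The most upstream, at 52171853, lay in ESC Ring1b and Ezh2 peaks alone, and the nearest peaks of the lists that missed it were 653 bp away for ESC H3K27me3, 1348 bp for NSC Ring1b, 1548 bp for Cbx2 and 3148 bp for NSC H3K27me3. The start at 52168710 lay in all 4 ESC lists and in neither NSC list, and so did the RefSeq start site at 52168572. The pair at 52167451 and 52167504 lay in ESC Ring1b, Cbx2 and Ezh2 and in the narrow NSC Ring1b peak, but not in H3K27me3 of either cell type. No start of Hoxa7 lay in an NSC H3K27me3 peak, whichever was used.

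**Figure D2:**
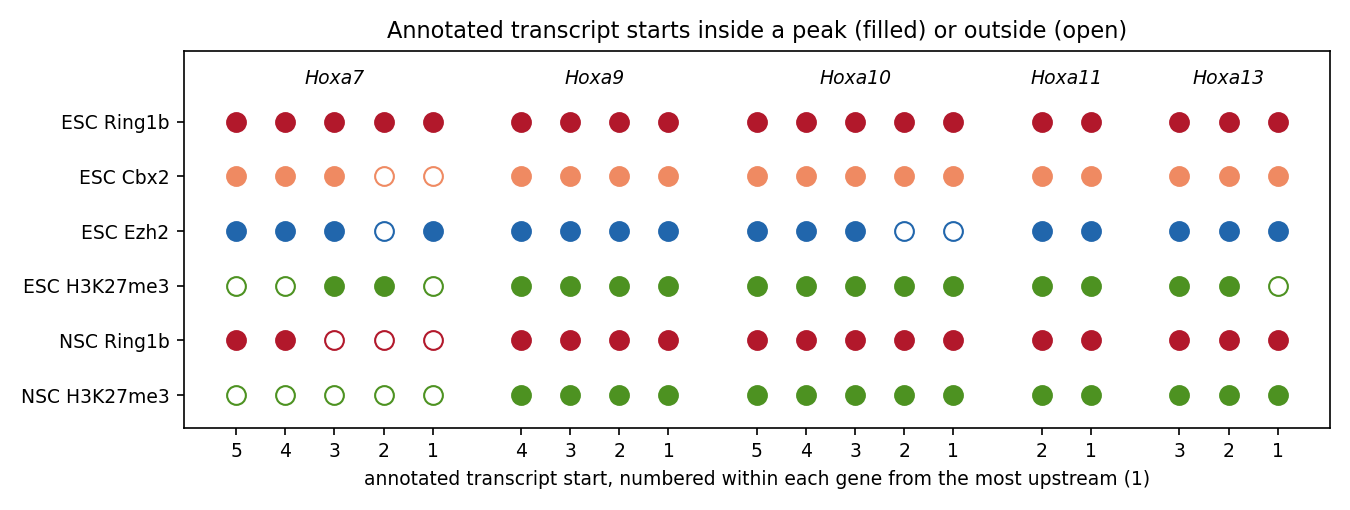
The 19 distinct annotated transcript starts of the 5 genes (columns, numbered within each gene from the most upstream) in each list (rows), filled where the start lies inside a peak and open where it does not. Open circles gather at Hoxa7, and Hoxa9 and Hoxa11 are filled throughout.

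The wide NSC domain of both targets lay on the Hoxa9 side of the stretch between Hoxa7 and Hoxa9. The 1245 bp of this stretch were wholly covered by ESC Ring1b and to 43.94% by Ezh2, and had no Cbx2, H3K27me3 or NSC peak. The wide NSC Ring1b domain began at 52173201, 102 bp inside the 3′ end of Hoxa9, and NSC H3K27me3 began 1800 bp further in, at 52175001. Both edges thus lay in the 3′ part of Hoxa9. From the lower end of the region to the end of Hoxa7 (17.36 kb), Ring1b covered 100% in ESCs and 8.06% in NSCs, and H3K27me3 62.84% and 0%. From Hoxa9 to the upper end (47.78 kb) the order was the opposite, with Ring1b at 89.8% in ESCs and 95.45% in NSCs and H3K27me3 at 74.93% and 82.47%.

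Hoxa9, a regulator of blood progenitors as well as of the axis, was covered in all 6 lists. Peaks covered 100% of its body for ESC Ring1b, 96.22% for Cbx2, 91.21% for Ezh2 and 93.72% for ESC H3K27me3, and 98.72% and 76.2% for NSC Ring1b and H3K27me3. Where bases were uncovered, they were at the 3′ end of the gene. Its 4 transcript starts all lay inside peaks of all 6 lists. The difference between cell types was larger in its window, which reaches into Hoxa7, at 100% in ESCs against 68.91% in NSCs for Ring1b and 78.56% against 57.48% for H3K27me3.

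The span of Hoxa9 also holds the microRNA gene Mir196b, whose mature products are known to target Hox transcripts. All 85 bp of its hairpin lay under peaks in each of the 6 lists. The RefSeq mature sequences are shown because they sit within the stretch covered in every list, and the seed (bases 2 to 8) is in capitals. The 5p product lies at chr6:52180128-52180149 and the 3p product at chr6:52180093-52180114, both on the reverse strand of mm9.
mmu-miR-196b-5p: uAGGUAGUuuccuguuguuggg
mmu-miR-196b-3p: uCGACAGCacgacacugccuuc

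Hoxa10, which acts in the lumbar axis and the uterus, was the member with the most divided ESC pattern. Ring1b and H3K27me3 covered 100% of its body in both cell types. Cbx2 covered 77.22% and Ezh2 47.68%, the lowest body coverage of any member in an ESC list. The missing Ezh2 was 1 gap of 7400 bp that ran from within Hoxa10 into the 3′ end of Hoxa11, and the missing Cbx2 a gap of 2200 bp at the same lower edge. Exons fared otherwise, with 100% of exonic bases under Cbx2 and 84.97% under Ezh2. The uncovered part of Hoxa10 thus lay mostly outside its exons. RefSeq gives Hoxa10 a pair of start sites 5915 bp apart. The downstream one (52184938) lay in all 6 lists and the upstream one (52190853) in all but Ezh2, whose nearest peak was 2348 bp away.

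Hoxa11, needed with Hoxd11 for the forearm and the kidney, had peaks of both targets in both cell types. Its body was covered to 100% by ESC Ring1b and H3K27me3, 83.1% by Cbx2 and 73.36% by Ezh2, and to 87.97% by NSC Ring1b and 78.23% by NSC H3K27me3. Both transcript starts lay inside peaks of all 6 lists. The uncovered bases lay again at the 3′ end, beside a break between Hoxa10 and Hoxa11 that was present in 4 lists. It measured 1200 bp in each of Cbx2, NSC Ring1b and NSC H3K27me3 and was part of the 7400 bp gap in Ezh2, while ESC Ring1b and H3K27me3 ran through it. The NSC breaks shared 800 bp. The antisense transcript Hoxa11as, which overlaps the 5′ part of Hoxa11, was covered to 96.34% by ESC H3K27me3 and to 100% in the other lists.

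The 11479 bp between Hoxa11 and Hoxa13 were the first stretch with more NSC than ESC coverage, from 86.06% to 100% for Ring1b and from 55.64% to 78.29% for H3K27me3. Hoxa13, which patterns the digits and the hindgut and is the last gene of the cluster, followed the same direction. Ring1b covered all of its body in both cell types, and Cbx2 100% and Ezh2 77.75% in ESCs. H3K27me3 covered 56.57% of the body in ESCs and 84.04% in NSCs. In its window Ring1b covered 78.98% in ESCs and 96.23% in NSCs, and H3K27me3 50.5% and 77.25%. Hoxa13 was thus the one member with more coverage in the NSC list for both targets. Every base under an ESC peak of either target in this window was also under the NSC peak.

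The start site of Hoxa13 illustrates the resolution of the lists. It lay 74 bp outside an ESC H3K27me3 peak of 1800 bp in the 5′ part of the gene. The other 2 annotated starts of Hoxa13, 77 and 78 bp downstream, lay inside this peak. Peak edges fall on steps of 200 bp, so this start site cannot be told apart from one inside. Upstream of the ESC peak came a gap of 1200 bp, which NSC H3K27me3 covered as part of a peak of 9000 bp. Upstream of Hoxa13 the last NSC peaks of both targets ended at the same position, 9126 bp from the start site, against 6726 bp for ESC Ring1b.

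Read in order along the cluster, the NSC minus ESC difference in window coverage ran from negative to positive for both targets. For Ring1b it was -63.26 percentage points at Hoxa7, -31.09 at Hoxa9, -10.81 at Hoxa10, -3.27 at Hoxa11 and 17.25 at Hoxa13. For H3K27me3 it was -44.99, -21.09, -4.56, 5.81 and 26.74 at the same genes. The order was the same for both targets, and it is partly built in, since neighbouring windows share bases. Without the flanks the order did not hold. The body differences for Ring1b were -80.99 at Hoxa7, -1.28 at Hoxa9, 0 at Hoxa10, -12.03 at Hoxa11 and 0 at Hoxa13, and for H3K27me3 -57.03, -17.52, 0, -21.77 and 27.47. Hoxa7 at one end and Hoxa13 at the other still held the extremes for H3K27me3. With 1 library each, no spread is available to say which neighbours in these orders differ.

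**Figure D3:**
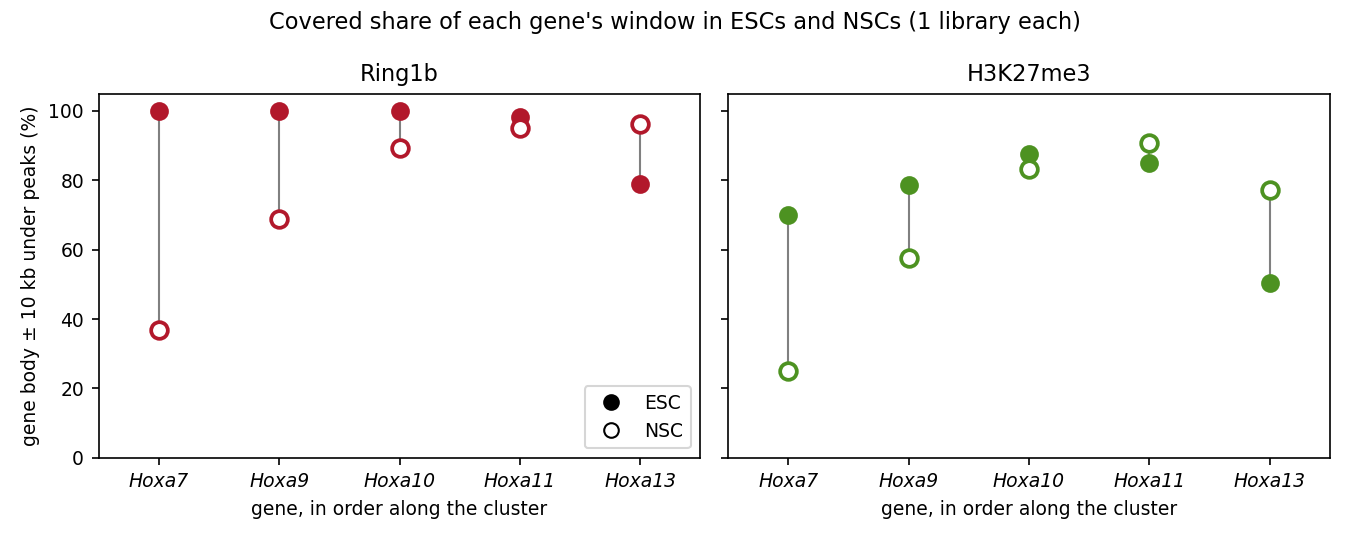
Share of the gene body plus 10 kb either side under peaks (y axis, %) for each gene in order along the cluster, in ESCs (filled) and NSCs (open), with 1 library per point. For both targets the NSC point is far below the ESC point at Hoxa7 (36.74% against 100% for Ring1b) and above it at Hoxa13 (96.23% against 78.98%).

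Over the region as a whole the shares kept were close for the 2 targets. Ring1b was shared by both cell types over 43 kb, in ESCs alone over 18.51 kb and in NSCs alone over 4 kb, so that 69.91% of the ESC bases were also NSC bases. H3K27me3 was shared over 33.2 kb, in ESCs alone over 13.51 kb and in NSCs alone over 6.2 kb, with 71.08% of the ESC bases kept. In NSCs both targets covered 39 kb together and one without the other 8.4 kb.

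Hoxa2 to Hoxa6, on the anterior side of the cluster, had ESC peaks and no NSC peaks over their bodies. The start site lay inside an ESC Ring1b peak in 5 of 5 and inside an ESC H3K27me3 peak in 4 of 5, and inside an NSC peak of either target in 0 of 5. Their body coverage was 0% in both NSC lists. Hoxa7 shared with them a body coverage of 0% for NSC H3K27me3, and differed in its narrow NSC Ring1b peak. At the other side Evx1, a homeobox gene 52617 bp beyond Hoxa13, had the start site inside a peak of all 6 lists. Hibadh, farther out on that side, and Skap2, beyond the anterior end of the cluster, are not homeobox genes. Both had the start site inside a peak of none of the lists.

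The posterior genes of the other Hox clusters also had NSC peaks, though not all at the same start sites as in ESCs. Ring1b was at the start site in both cell types in 2 of 4 among Hoxb7, Hoxb8, Hoxb9 and Hoxb13, 5 of 6 among Hoxc8 to Hoxc13 and 5 of 6 among Hoxd8 to Hoxd13, and in ESCs alone in Hoxb9, Hoxb13, Hoxc13 and Hoxd12. H3K27me3 was there in both in 2 of 4, 3 of 6 and 5 of 6, in ESCs alone in Hoxb7 and Hoxc10, and in NSCs alone in Hoxb9, Hoxc13 and Hoxd8. In H3K27me3 the median window coverage was 37.37% in ESCs and 51.45% in NSCs for the Hoxb genes, 36.48% and 68.28% for Hoxc and 54.71% and 90.04% for Hoxd. Among the posterior Hoxa genes the medians were 78.56% and 77.25%. For Ring1b the median was lower in NSCs in each cluster. It was 100% in ESCs and 89.19% in NSCs for Hoxa, 88.01% and 60.28% for Hoxb, 81.58% and 61.15% for Hoxc and 91.52% and 84.69% for Hoxd. Hoxb7, the counterpart of Hoxa7 in the Hoxb cluster, had NSC Ring1b over 73.68% and H3K27me3 over 49.34% of its body, against 19.01% and 0% in Hoxa7. The paralogues of Hoxa13 had higher NSC than ESC H3K27me3 coverage of the window as it did, at 15.56% and 42.37% in Hoxb13, 18.76% and 71.85% in Hoxc13 and 56.2% and 100% in Hoxd13. For Ring1b these 3 genes had lower coverage in the NSC list (64.85% and 24.21%, 56.7% and 34.88%, 89.7% and 79.39%), unlike Hoxa13.

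**Figure D4:**
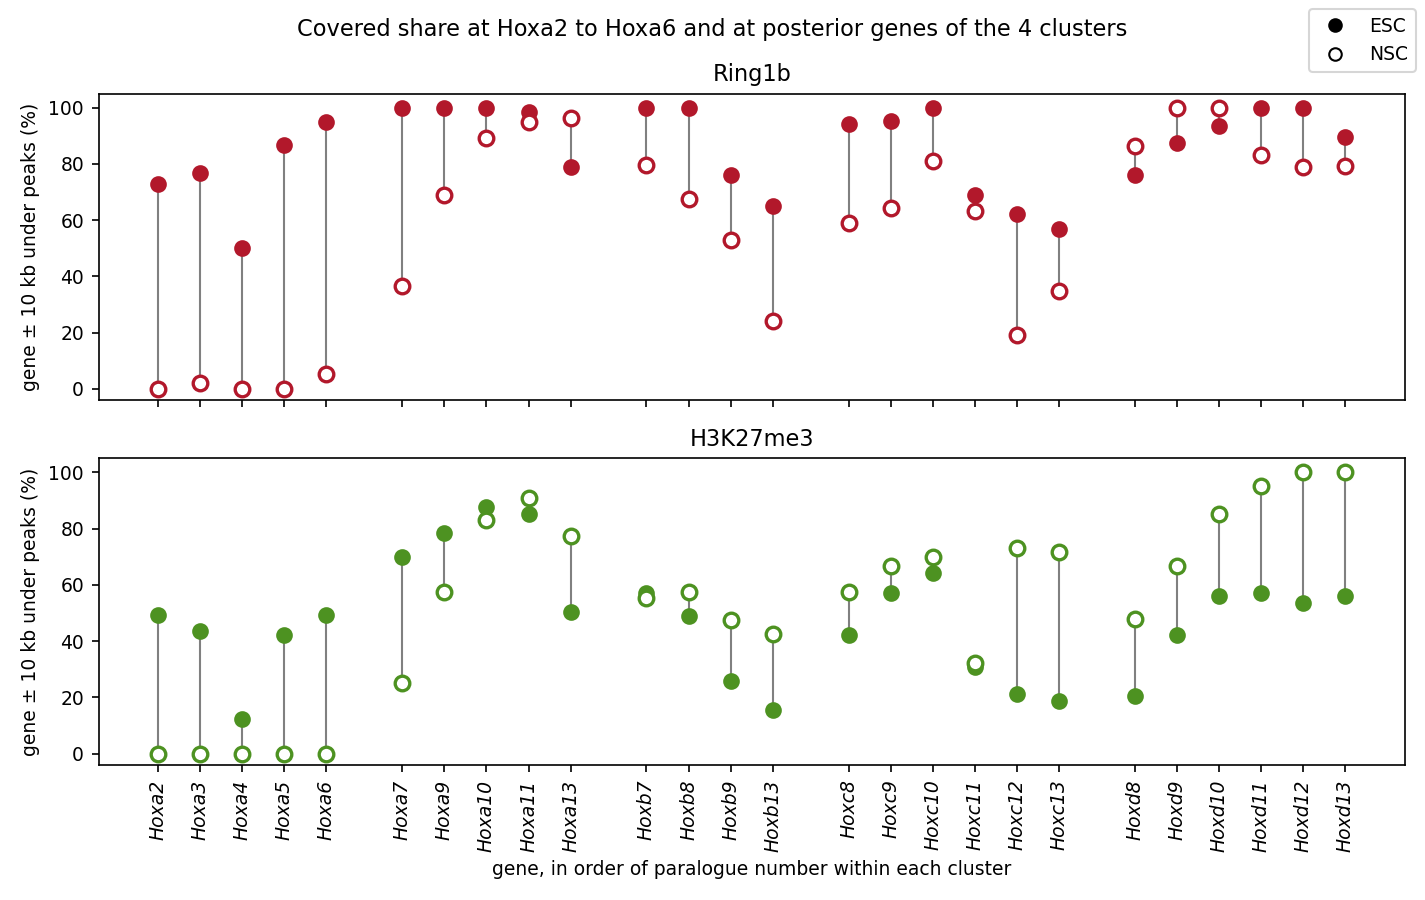
Share of the gene body plus 10 kb either side under peaks (y axis, %) at Hoxa2 to Hoxa6, the 5 posterior Hoxa genes and the posterior genes of the Hoxb, Hoxc and Hoxd clusters, in ESCs (filled) and NSCs (open). Hoxa2 to Hoxa6 stand at or near 0 in NSCs, at most 5.4%, and every posterior gene stands above that.

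The protein-coding genes over 100 kb away whose 6 window shares came closest to the mean of the members were Hoxc9, Hoxb6, Gm14396, Hoxd11 and Hoxc10, at Euclidean distances of 32.58, 33.08, 33.47, 34.72 and 34.89 percentage points over the 6 lists. All but Gm14396, a predicted gene in the Hoxd cluster, are Hox genes of the other clusters. The members themselves stood at 14.22 (Hoxa9), 25.27 (Hoxa10), 32.14 (Hoxa11), 38.78 (Hoxa13) and 59.45 (Hoxa7) from that mean. Hoxa13 and Hoxa7 were thus farther from the mean of the members than these 5 genes on other chromosomes.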

How the data were processed

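Each of the 6 deposited files lists the peaks of 1 library, as start and end positions in mm9. They give neither the height of a peak nor its significance. According to the paper's methods the authors aligned paired tags of 50 bp by Bowtie, whereas the submitters' processing notes name BWA. They compared tag counts with input in 1 kb windows every 200 bp by a negative binomial distribution, chose its size parameter by eye, and joined significant windows up to 1 kb apart, so that narrower gaps do not appear. Ring1b had its own inputs, and only the paper states an added EGS cross-link for it. The 4 input libraries were not analysed here. The depth of the libraries is unknown.

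A peak was counted from an overlap of 1 bp, and bases under peaks were summed, in Python 3.11.15 (numpy 2.4.6, scipy 1.17.1, matplotlib 3.10.9) and checked against simulated peaks. The GENCODE genes and the NCBIM37 sequence are of the files' build. The RefSeq promoters come from GRCm38.p6 and were placed in mm9 by exact match, and RefSeq miRNAs likewise, so no coordinate was converted. Homeodomains were not compared, because no protein sequences were used here. All 5 members are named, in order along the cluster, with the other Hox genes and neighbours fixed by list and the 5 genes nearest in pattern. One listed gene is not reported here. The members and lists were chosen with earlier results of these data known. Alternatives were peaks of at least 2 kb, peaks within 3 kb merged, flanks of 5 kb or none, a peak within 500 bp of the start site and any transcript start, with RefSeq start sites added after the data were seen.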

Additional observations from a re-analysis of the deposited data

How the results depend on the processing

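Of 62 alternative values for 14 results, 48 were counted as near the value reported. For covered shares this means within its exact 95% binomial interval over windows of 200 bp. Neighbouring windows are not independent, so that interval is a yardstick and not a measure of uncertainty. Also counted as near were an H3K27me3 difference of 17.4 points against 11.01 and some changed start-site counts. Those were Ezh2 in 3 members in place of 4 with peaks of at least 2 kb. Cbx2 and Ezh2 were also in 5 in place of 4 with any transcript start or RefSeq start sites. NSC Ring1b was in 5 in place of 4 with any transcript start. ESC H3K27me3 was in 4 in place of 3, equal to the NSC count, with a peak within 500 bp or RefSeq start sites. None of the alternatives turned the ESC minus NSC difference in covered share. The start sites inside ESC H3K27me3 peaks were 5 in place of 3 when peaks within 3 kb were merged and 5 when any transcript start counted, above the NSC count of 4 in place of below it. Merging raised the covered share of the region to 87.84% for Cbx2, 76.09% for Ezh2, 87.84% for ESC H3K27me3 and 67.79% for NSC H3K27me3, and the H3K27me3 difference to 20.05 percentage points. Flanks of 5 kb gave 97.09% for ESC Ring1b and 76.3% for ESC H3K27me3. Gene bodies alone gave 100% for ESC Ring1b, 83.75% for Cbx2, 84.37% for ESC H3K27me3, 79.69% for NSC Ring1b and 66.97% for NSC H3K27me3, with an H3K27me3 difference of 17.4 points. With RefSeq start sites, chosen after seeing the data, the counts were 5, 5, 5 and 4 in ESCs (Ring1b, Cbx2, Ezh2, H3K27me3) and 4 and 4 in NSCs (Ring1b, H3K27me3). The ways in which each list was tuned, its depth and its antibody cannot be told apart from the cell type or the target with 1 library each. A missing peak means only that no window passed the threshold set by the authors. No paired analysis was possible because each cell type and target has 1 library.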
